A study of Homo sapiens with 61 samples.

Results

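The response of human neurons to vincristine when JUN was knocked down was measured in the 10 libraries labelled JUN gRNA, 5 with vincristine and 5 without, out of 61 libraries in the series. All expressed genes were compared, which came to 20759 genes tested. The neurons came from WTC11, a widely used line of reprogrammed human cells, turned into neurons by expressing the transcription factor NGN2. The JUN gRNA cells carried a CRISPR interference system, which represses a gene at its promoter, and a lentiviral guide RNA against JUN. The Control gRNA cells (10 libraries, 5 and 5) carried the same system with a scrambled guide, and the ATF2 gRNA cells (9 libraries) a guide against ATF2. Vincristine was given at 5 nM for 16 h on day 14, and the libraries that the labels call untreated received the DMSO vehicle. A separate experiment held wild-type WTC11 neurons (WT) and knockouts (KO) of the kinases DLK, LZK or both (double KO), with 4 libraries per line and treatment. Nothing in the labels says that the libraries of a group came from separate differentiations, so p-values measure the spread between these libraries, which may be in part technical. The number of guides per gene and of clones per line is not given in the sources used here.

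Vincristine binds tubulin, the subunit of microtubules, and makes microtubules fall apart. In neurons, damage to axonal microtubules activates DLK and LZK, which act through the JNK kinases on JUN and ATF2, members of the AP-1 and ATF families of transcription factors. Cells also tune tubulin production to the amount of free tubulin: when free subunits rise, ribosomes that have just made the first residues of a new tubulin chain are recognised and the messenger RNA is degraded.

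The 20 JUN gRNA and Control gRNA libraries held 38.9 to 88.4 M counts. Markers of neurons summed to 9000 to 9640 CPM (counts scaled to library size) in untreated and 7820 to 8150 CPM in vincristine JUN gRNA libraries. Microglial markers stayed at or below 0.286 CPM, with 3 of 5 at 0 counts, and astrocyte markers at or below 5.37 CPM. Markers of neural progenitors and dividing cells summed to 16.8 to 24.2 CPM, of pluripotent cells to 14.2 to 20.1 CPM and of the oligodendrocyte lineage to 9.16 to 14.7 CPM. POU4F1, a sensory neuron factor, was present at 414 CPM untreated and 331 CPM with vincristine, although the labels call the cells cortical. One library, JUN gRNA vincristine replicate 5, stood apart: over the genes that moved at least 2-fold in Control gRNA, its median change in the direction of the response was 0.335 on the log2 scale, against 0.484 to 0.558 in the other 4 and 1.532 to 1.608 in Control gRNA. The main counts are therefore given with and without this library. The genes behind these medians were chosen in Control gRNA, which favours larger values there.

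JUN itself (chromosome 1, 58780788 to 58784327, GRCh38) was strongly reduced in every JUN gRNA library. Untreated JUN gRNA libraries held 2.93, 2.73, 2.24, 2.98 and 3.47 CPM, and vincristine libraries 7.18, 6.89, 7.74, 5.92 and 4.40 CPM. The Control gRNA libraries held 81.7 to 97.8 CPM untreated and 223 to 255 CPM with vincristine, so no library of one guide overlapped one of the other. JUN RNA in JUN gRNA neurons was 3.24% of Control gRNA without the drug and 2.71% with it. What was left still rose with vincristine, by 1.19 on the log2 scale (SE 0.13, adjusted p = 7.92e-08, edgeR), next to 1.42 in Control gRNA. The response described here is therefore that of neurons with little JUN transcript, not with none, and JUN protein was not measured. Of the relatives of JUN, JUND rose by 0.74 (0.95 in Control gRNA) and JUNB by 0.75 (0.15 in Control gRNA, not called), while ATF2 gave -0.14 with an adjusted p of 0.53.

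A response to vincristine remained under JUN knockdown, and it was smaller. edgeR's quasi-likelihood test called 3300 genes in JUN gRNA neurons (15.9% of 20759, adjusted p under 0.05), 1574 higher (7.58%) and 1726 lower (8.31%), against 7318 in Control gRNA (35.3%), 3551 higher (17.1%) and 3767 lower (18.1%). Without replicate 5 of the vincristine group, 3275 were called. Among the 3300 genes, 240 changed at least 2-fold, 202 of them upward. Of the genes called in JUN gRNA, 2369 were called in the same direction in Control gRNA, which is 71.8% of the JUN gRNA calls and 32.4% of the Control gRNA calls. The effect itself differed between the guides for 3273 genes (15.8%), more positive in JUN gRNA for 8.71% of genes and more negative for 7.06%. Of the 2369 shared genes, the difference was not called for 1493, the JUN gRNA effect was the smaller for 844 and the larger for 32. The median effect over all genes tested was near 0 in both, at 0.009 in JUN gRNA and 0.031 in Control gRNA. Among the 873 genes that at least doubled in Control gRNA, the median effect was 1.72 there and 0.55 in JUN gRNA. Among the 173 genes that fell at least 2-fold in Control gRNA, it was -1.28 there and -0.47 in JUN gRNA. Both sets were chosen by their effect in Control gRNA, which by itself favours larger medians there. The size of these gaps is therefore not read as a result.

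To find genes that kept over 50% of their response with JUN knocked down, the JUN gRNA effect was tested against 50% of the Control gRNA effect. Of the 7318 genes called in Control gRNA, 227 (1.09% of genes tested) had an effect above that 50% and are called kept here, 130 of them higher with vincristine (0.626%) and 97 lower (0.467%). For 799 genes the effect was below 50%, which is called reduced here, and for 6292 the libraries did not decide. Without replicate 5 of the vincristine group, 254 genes were kept, 204 of them among the 227. All 227 were also called in JUN gRNA alone, and for 177 of them the difference between the guides was not called. Kept therefore does not mean unchanged. TNFRSF12A was kept at 2.54 against 4.09 in Control gRNA, and NAB2 at 1.81 against 0.83. The test selects for a large effect in JUN gRNA. Medians were 0.618 against 0.416 for kept higher genes and -0.435 against -0.33 for kept lower genes. The kept genes were mostly protein coding (216 of 227). JUN, the target of the guide, is itself among the kept higher genes (1.19 against 1.42), as is JUND (0.74 against 0.95). Tubulin transcripts led the kept falls, and EGR1 led the kept rises.

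**Figure D1:**
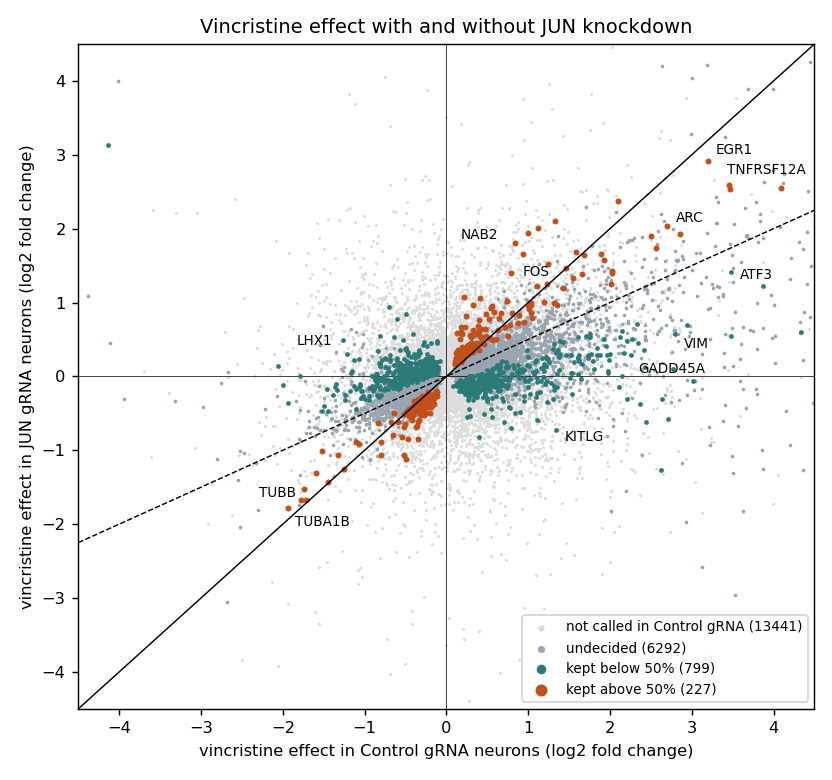
Vincristine effect in Control gRNA neurons (horizontal) against JUN gRNA neurons (vertical), as log2 fold changes of 20759 genes, with lines for equal effects (solid) and for 50% of the Control gRNA effect (dashed); 65 genes lie outside the axes. The 227 genes kept above 50% (orange) include EGR1 at 2.92 and TUBA1B at -1.78 in JUN gRNA, near the line of equal effects, whereas ATF3, VIM and GADD45A lie among the 799 below 50% (green).

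The α and β tubulin messages fell with vincristine about as far with JUN knocked down as without. Of 17 genes of this kind listed, 13 were expressed enough to be tested; 10 were called lower and 0 higher in JUN gRNA (of all genes, 8.31% were called lower), and 8 of them were kept. The median effect over the 13 was -1.31 in JUN gRNA and -1.25 in Control gRNA. TUBA1A, the main α tubulin of young neurons, held 6420, 6330, 6660, 6280 and 6350 CPM in untreated and 2220, 1950, 2070, 1690 and 2130 CPM in vincristine JUN gRNA libraries. All vincristine libraries lay far below all untreated ones, and they lay around the Control gRNA vincristine libraries, at 1960 to 2080 CPM. TUBA1A fell by 1.67 (SE 0.05, adjusted p = 1.77e-21, edgeR) in JUN gRNA and by 1.78 in Control gRNA. TUBB, a widely expressed β tubulin, went from 2350 to 2570 CPM down to 658 to 860 CPM, a fall by 1.68 (SE 0.04), against 1.72 in Control gRNA. TUBA1B, another widely expressed α tubulin, went from 683 to 791 CPM down to 181 to 238 CPM, a fall by 1.78 (SE 0.06), against 1.94. Per kilobase of transcript, TUBA1A was the most abundant tubulin without the drug, at 1870 CPM per kb, followed by TUBB at 740 and TUBB2B at 398.

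Most other tubulins fell too. TUBB4A fell by 1.52 and 1.75 in JUN gRNA and Control gRNA, TUBB2A by 1.43 and 1.44, and TUBB2B by 1.25 and 1.25. For TUBB2B the difference between the guides was 0.00, with a 95% interval from -0.14 to 0.14. The interval also held 0 for TUBA1A, TUBB, TUBB2A and TUBB3. It lay above 0, towards a smaller fall in JUN gRNA, for TUBA1B (0.002 to 0.317), TUBB4A (0.025 to 0.415) and TUBA4A (0.038 to 0.364). Their differences were not called. TUBB4B fell by 1.31 and 1.59, and this difference of 0.28 was called (adjusted p = 0.0137, edgeR). TUBA4A fell by 0.64 and 0.84. TUBB6 was different. It held 4.82 to 7.56 CPM untreated and 4.58 to 6.97 CPM with vincristine in JUN gRNA (effect -0.03, adjusted p = 0.941, edgeR), while in Control gRNA it rose from 5.19 to 7.22 CPM up to 10.6 to 12.1 CPM. The difference was -0.97 (SE 0.18, adjusted p = 7.85e-05, edgeR). TUBB3 fell by 0.65 in both at only 15.4 to 20.4 CPM untreated, and it overlaps another annotated gene on the same strand, so its count is uncertain. TUBA1C overlaps TUBA1A on the opposite strand, and whether strand was used in counting is not given in the sources used here. It fell by 1.44 in JUN gRNA, from 1.79 to 2.52 CPM down to 0.656 to 1.24 CPM, and gave -0.46 in Control gRNA; the call of this difference was lost in 15 of 27 alternatives. TUBA8 (0.77, adjusted p = 0.622) and TUBB8 (-0.14, adjusted p = 0.954) stayed below 1 CPM and were not called by edgeR. Tubulin genes are near copies of each other, so reads may have been split or lost between them.

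Summed over the 17 genes, tubulin transcripts went from 11300 ± 301 CPM (SD, n = 5) to 3691 ± 368 CPM in JUN gRNA, and from 12360 ± 291 to 3804 ± 60.6 CPM in Control gRNA. That leaves 32.7% in JUN gRNA and 30.8% in Control gRNA. CPM are shares of all RNA in a dish, so fewer cells of a kind and less RNA per cell cannot be told apart. The summed neuron markers given above moved in the same direction and far less, and their part in the tubulin fall was not tested. Beyond α and β tubulin, TUBG1, the γ tubulin from which microtubules grow, fell by 1.06 (SE 0.07) in JUN gRNA and by 1.32 in Control gRNA. It was kept, and its difference had a 95% interval from 0.067 to 0.461 (adjusted p = 0.0509, edgeR). TUBG2, its close relative, fell by 0.27 in both.

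**Figure D2:**
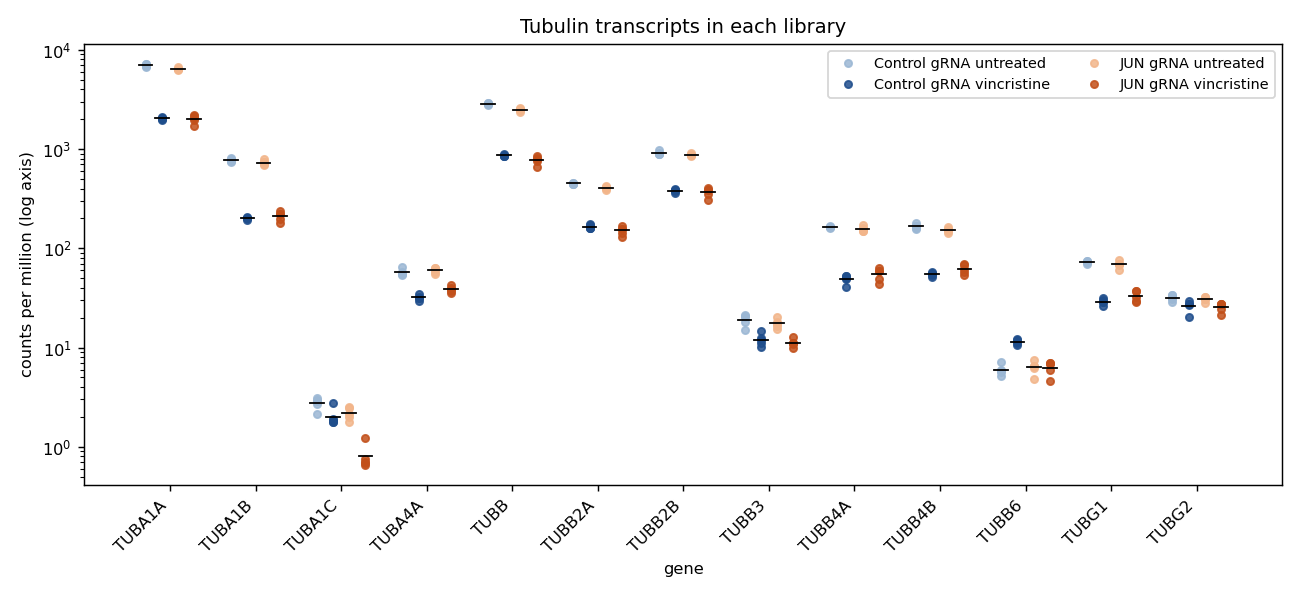
CPM (log axis) of 13 tubulin genes in each library of 4 groups, with 5 points per group and a bar at the mean. TUBA1A lies at 6280 to 6660 CPM untreated and 1690 to 2220 CPM with vincristine in JUN gRNA, while TUBB6 lies at 4.58 to 6.97 CPM with vincristine in JUN gRNA and at 10.6 to 12.1 CPM in Control gRNA.

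The first codons of α and β tubulin genes encode the signal by which their messages are recognised in the known feedback loop, and they are shown here for that reason. Each line gives the first 24 bases of the coding sequence of a GENCODE 29 transcript (GRCh38), with the first 12 bases, which are 4 codons, in capitals.
TUBA1A: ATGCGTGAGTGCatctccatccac
TUBA1B: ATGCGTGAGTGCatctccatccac
TUBA4A: ATGCGTGAATGCatctcagtccac
TUBB: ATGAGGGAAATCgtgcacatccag
TUBB4B: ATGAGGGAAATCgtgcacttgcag
TUBB2A: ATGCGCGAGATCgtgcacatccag
TUBB2B: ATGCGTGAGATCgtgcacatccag
TUBB4A: ATGCGGGAGATCgtgcacctgcag
TUBB3: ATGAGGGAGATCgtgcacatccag
TUBB6: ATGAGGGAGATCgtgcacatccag
TUBG1: ATGCCGAGGGAAatcatcacccta
TUBG2: ATGCCCCGGGAGatcatcaccctg
TUBA1A and TUBA1B share all 24 bases. The γ tubulins TUBG1 and TUBG2 are listed for comparison only, and their first 12 bases match none of the α and β tubulin openings. Of 14634 tested genes whose coding start could be read, 0 outside the tubulins began with any of the 8 openings of 12 bases found in α and β tubulins. This search matched exact bases, so other codons for the same residues were missed and few matches could arise by chance. It cannot show that the signal is particular to tubulins. TUBB6 shares its 24 bases with TUBB3, and in JUN gRNA TUBB6 was not called while TUBB3 fell by 0.65. The count of TUBB3 is uncertain, as given above, and the part of the opening in the response was not tested. Genes for the feedback and folding machinery showed small effects. Of 10 tested, 4 were called lower and 0 higher, beside 8.31% and 7.58% of all genes. Effects included -0.13 for TTC5, the factor that recognises new tubulin chains (adjusted p = 0.0498, edgeR), and -0.15 for TBCB, a tubulin folding cofactor. With RLE factors 1 of the 10 was called, and without replicate 5 of the vincristine group 2 were.

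Most kept tubulins also fell in the other lines. In ATF2 gRNA neurons TUBA1A fell by 2.23, TUBB by 2.05 and TUBA1B by 2.06. In the double KO, where 12 genes were called among 18235 tested (0.0658%), TUBA1A fell by 1.64 (SE 0.10, adjusted p = 3.99e-13, edgeR), TUBB by 1.56 and TUBA1B by 1.66. In WT these 3 fell by 1.90, 1.58 and 2.28, without DLK by 1.66, 1.73 and 2.02, and without LZK by 1.16, 1.19 and 1.37, in the same order. TUBB2B fell by 1.45 in the double KO and by 1.06 in WT, and TUBG1 by 1.06 and 1.66. TUBA4A, also kept, was not called in the double KO (-0.47) or without LZK (-0.62), and was called lower without DLK, in WT (-0.96) and in ATF2 gRNA (-1.28). Differences between these lines were not tested.

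The activity-induced early genes also responded without normal JUN. These genes are switched on within minutes of a stimulus, mostly by factors already present in the cell, and many encode transcription factors. Of 17 listed, 13 were tested. In JUN gRNA 8 were higher and 2 lower, in Control gRNA 6 and 4, and 5 were kept. The median effect was 1.03 in JUN gRNA and 1.14 in Control gRNA. Of all genes, 7.58% were called higher and 8.31% lower in JUN gRNA, 17.1% and 18.1% in Control gRNA, and 1.09% were kept.

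EGR1, a zinc finger transcription factor of growth and activity signalling (chromosome 5, 138465490 to 138469315), showed the largest kept rise. It held 38.8, 40.4, 32.0, 39.6 and 46.7 CPM in untreated and 316, 317, 330, 302 and 224 CPM in vincristine JUN gRNA libraries. In Control gRNA it held 11.4 to 16.3 CPM and 119 to 142 CPM, so with either treatment every JUN gRNA library was above every Control gRNA library. The rise was 2.92 (SE 0.10, adjusted p = 2.71e-17, edgeR) in JUN gRNA and 3.20 in Control gRNA, and the difference of -0.28 was not called (95% interval -0.57 to 0.00). Already without the drug EGR1 was 2.84-fold higher in JUN gRNA (adjusted p = 6.69e-11, edgeR). FOS, the classical partner of JUN in AP-1, held 3.89, 3.14, 3.19, 4.32 and 4.57 CPM untreated and 11.6, 12.5, 12.7, 10.7 and 4.97 CPM with vincristine. The lowest vincristine library, replicate 5, was only just above the highest untreated one. FOS rose by 1.46 (SE 0.17, adjusted p = 8.38e-09, edgeR) and by 1.46 in Control gRNA, with a difference of 0.00 and a 95% interval from -0.54 to 0.55. Without replicate 5 the rise was 1.64.

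IER2, an early gene of cell growth control, went from 35.8 to 41.4 CPM up to 81.8 to 105 CPM in JUN gRNA. This was a rise by 1.33 (SE 0.06), against 1.55 in Control gRNA. ARC, which encodes a synaptic protein, held 1.85, 2.27, 2.05, 2.34 and 2.78 CPM untreated and 9.39, 9.25, 11.4, 10.8 and 5.17 CPM with vincristine. It rose by 2.04 (2.19 without replicate 5) and by 2.70 in Control gRNA, and was kept although the difference of -0.66 was called (adjusted p = 0.0275, edgeR). BTG2, a growth inhibitor, rose more in JUN gRNA than in Control gRNA, by 0.84 and 0.48. NAB2, a corepressor that binds EGR1, was picked after its values were seen. It held 30.0 to 31.2 CPM untreated and 89.3 to 115 CPM with vincristine in JUN gRNA, but 19.2 to 22.0 and 30.3 to 40.9 CPM in Control gRNA. Its rise was 1.81 (SE 0.07) against 0.83, a difference of 0.97 (adjusted p = 7.06e-11, edgeR).

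The list did not move as one. NR4A1, an orphan nuclear receptor, rose by 1.03 in JUN gRNA and 1.75 in Control gRNA. Its relatives NR4A2 and NR4A3 fell, by 0.60 and 0.61 in JUN gRNA and by 1.33 and 1.36 in Control gRNA. EGR2 rose by 2.50 in JUN gRNA, from 0.189 to 0.408 CPM up to 1.23 to 2.06 CPM. In Control gRNA it was at 0 CPM in 3 untreated libraries and 1 vincristine library, so its effect there (1.66, adjusted p = 0.0598, edgeR) is poorly determined. IER5, another early gene, is described with the genes that moved in opposite directions.

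**Figure D3:**
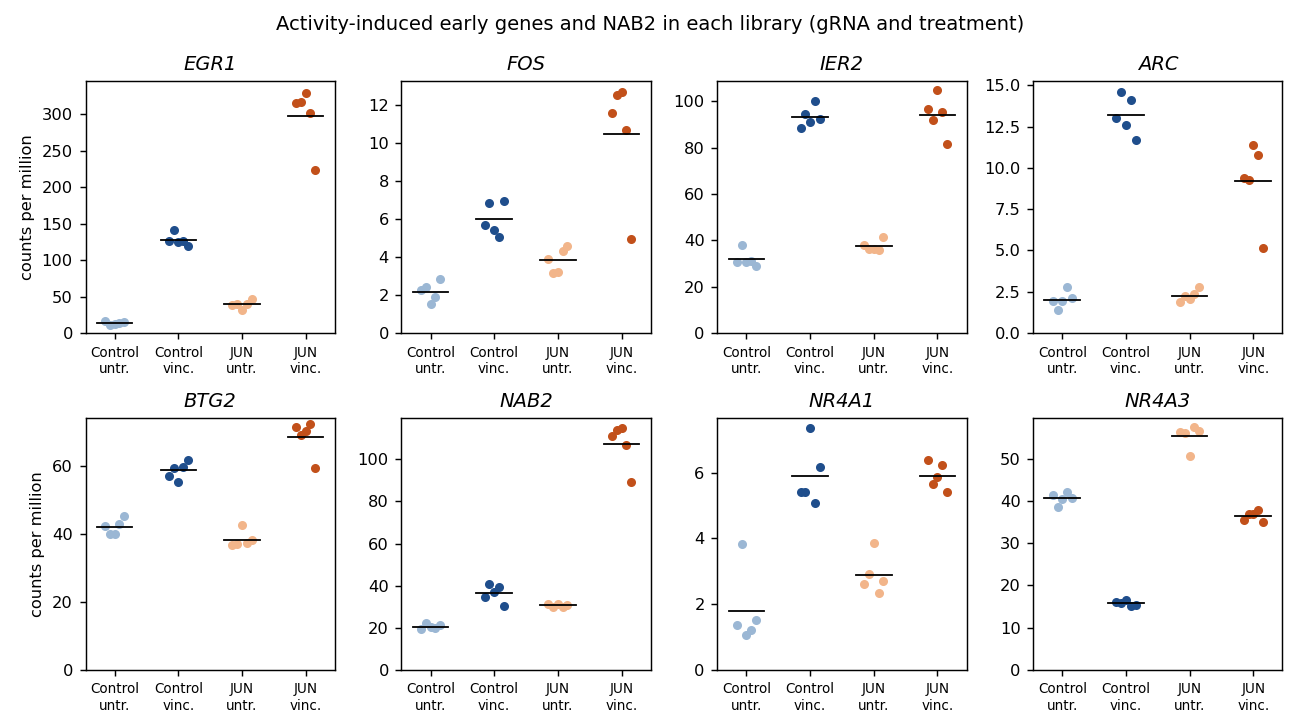
CPM of 7 early genes and NAB2 in each of the 5 libraries of 4 groups, with a bar at the mean and axes that start at 0. EGR1, FOS, IER2 and ARC rise with either guide, NAB2 rises further in JUN gRNA (89.3 to 115 CPM) than in Control gRNA (30.3 to 40.9 CPM), and the lowest JUN gRNA vincristine point for EGR1, FOS, ARC and NAB2 is replicate 5.

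Serum response factor, one of the factors that switch on early genes before any AP-1 is made, binds the CArG box. EGR1 and EGR2 hold CArG boxes just upstream of an annotated start, and these stretches are shown with the boxes in capitals (RefSeq, GRCh38.p14; 60 bases from 120 to 61 bases before the start, on the strand of the gene).
EGR1, chr5:138465359-138465418, plus strand: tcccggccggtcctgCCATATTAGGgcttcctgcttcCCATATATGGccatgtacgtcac
EGR2, chr10:62816427-62816486, minus strand: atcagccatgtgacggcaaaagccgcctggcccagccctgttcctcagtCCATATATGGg
EGR1 has 2 such boxes in this window and EGR2 has 1. EGR2 was not called in Control gRNA, so it is not a kept gene. The other kept early genes, FOS, IER2, ARC and BTG2, gave no CArG match in the promoter windows searched. These windows held only 300 bases around an annotated start. Boxes further away were not searched, so a missing match does not show that a gene lacks a CArG box. TUBG2, which fell with either guide, held a CArG box 194 bases before its start. Of 27305 genes with promoter windows of 300 bases in the table, 1.6% held a CArG box. Among kept higher genes with a window it was 5 of 104, which are EGR1, HIRIP3, MARF1, MIDEAS and TCF7 (chosen by the match, after values were seen), and among reduced higher genes 9 of 312. Among the 13220 tested genes with a window, 1.58% held a CArG box. The AP-1 site TGACTCA, searched on both strands, was found in 6.05% of all windows, in 4.83% of tested genes, in 8.65% of kept higher genes and in 9.29% of reduced higher genes. The CRE site TGACGTCA was found in 2.25%, 3.59%, 3.85% and 5.77%, so the kept higher genes were close to the tested genes. These are letter matches only, and the shares are descriptions.

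Within the pathway that acts on JUN, the AP-1 and ATF factors rose in part. Of 20 tested, 9 were higher and 0 lower in JUN gRNA, against 15 and 1 in Control gRNA, with medians of 0.44 and 0.74. Among all genes, 7.58% were higher and 8.31% lower in JUN gRNA, and 17.1% and 18.1% in Control gRNA. The 4 kept members of this list were JUN, JUND, FOS and ATF5. ATF3, a stress-induced repressor, went from 18.0 to 21.6 CPM up to 44.9 to 64.2 CPM in JUN gRNA and from 20.6 to 23.6 CPM up to 230 to 260 CPM in Control gRNA. Its rise of 1.42 (SE 0.07) against 3.48 made it one of the reduced genes. FOSL2, an AP-1 subunit, rose by 1.25 against 3.25, at levels of 0.318 to 2.30 CPM in JUN gRNA. ATF5, a factor of the amino acid stress response, rose by 1.42 against 2.03 and was kept. Of the phosphatases that switch off JNK and other MAP kinases, 5 of 11 were higher and 2 lower in JUN gRNA, 6 and 3 in Control gRNA, with medians of 0.37 and 0.39. DUSP16, which acts on JNK, rose by 1.41 against 2.03 and DUSP10, which acts on JNK and p38, by 0.58 against 0.39; both were kept. DUSP8 rose by 0.77 against 1.12. Of 17 genes of the kinase pathway itself, 4 were higher and 2 lower in JUN gRNA and 3 and 6 in Control gRNA. MAP3K13 (LZK) rose by 0.23 against 0.53, and its lowest vincristine library (32.9 CPM) was just under its highest untreated one (33.0 CPM) in JUN gRNA.

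The integrated stress response raises ATF4 targets when protein synthesis is restrained. Of 15 tested, 11 were higher and 1 lower in JUN gRNA, 13 and 1 in Control gRNA. But the median was 0.69 against 1.53, and the difference was called for 13 (15.8% of all genes). All genes tested gave 7.58% higher and 8.31% lower in JUN gRNA, and 17.1% and 18.1% in Control gRNA. DDIT3 (CHOP), a factor of terminal stress, went from 21.8 to 26.1 CPM up to 53.9 to 78.7 CPM, and in Control gRNA from 19.0 to 20.2 CPM up to 140 to 150 CPM. It rose by 1.59 (SE 0.07) against 2.89. GDF15, a stress hormone, rose by 2.00 against 2.77 at under 2 CPM. Amino acid transporters followed, with 7 higher and 1 lower of 14 against 11 and 1, and 0 kept. SLC7A3 rose by 0.77 against 1.44 and SLC1A5 by 0.53 against 1.60. SLC7A11, the cystine importer, gave 0.29 in JUN gRNA (not called, adjusted p = 0.19) against 1.73, a difference of -1.44 (SE 0.20, adjusted p = 9.1e-06, edgeR). Of 20 cytosolic aminoacyl-tRNA synthetases, 8 were higher and 2 lower, with 11 and 5 in Control gRNA, for example WARS1 at 0.36 against 0.54 and SARS1 at 0.27 against 0.49. Of 14 genes of serine and one-carbon synthesis, 4 were higher and 1 lower. SHMT2, a mitochondrial folate enzyme, rose by 0.55 against 0.76 and was kept, and MTHFD1, a cytosolic folate enzyme, fell by 0.35 against 0.24 and was kept.

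Cholesterol synthesis genes fell under JUN knockdown, and less than in Control gRNA. Of 19 genes tested, 17 were lower and 0 higher in JUN gRNA and 18 and 0 in Control gRNA. The median was -0.51 against -1.05, the difference was called for 15 (15.8% of all genes), and 0 genes were kept. Among all genes, 8.31% were lower and 7.58% higher in JUN gRNA, and 18.1% and 17.1% in Control gRNA. HMGCS1, which makes HMG-CoA for the sterol pathway, held 1220, 1060, 1170, 1200 and 1070 CPM untreated and 658, 723, 673, 833 and 841 CPM with vincristine in JUN gRNA. The groups did not overlap, which held for 11.8% of all genes. All 5 vincristine libraries were above the Control gRNA ones at 474 to 514 CPM. HMGCS1 fell by 0.62 (SE 0.05) against 1.08, INSIG1, a sterol sensor, by 0.69 against 1.62 and STARD4, a sterol carrier, by 0.72 against 1.35. Chaperones of the endoplasmic reticulum fell as well. Of 19, 12 were lower and 2 higher (13 and 5 in Control gRNA), with medians of -0.26 and -0.42. CALR fell by 0.57 against 0.85, and HSP90B1 (-0.39 against -0.40) and DNAJC3 (-0.44 against -0.31) were kept. Of 21 glycolysis and hypoxia genes, 2 were higher and 14 lower with either guide, and the difference between the guides was called for 7. The higher ones, NDRG1 (1.04 against 2.52) and VEGFA (0.78 against 1.75), were among those 7, and the enzymes ENO1 (-0.26 and -0.26) and PFKP (-0.35 and -0.23) were kept.

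Of 15 genes of the BCL2 family, 5 were higher and 0 lower in JUN gRNA (7.58% and 8.31% of all genes), and 6 and 3 in Control gRNA (17.1% and 18.1% of all genes), and the difference between the guides was called for 8. HRK, a neuronal BH3-only killer, went from 32.9 to 37.3 CPM up to 71.8 to 88.5 CPM, and in Control gRNA from 55.6 to 66.4 CPM up to 277 to 289 CPM. It rose by 1.24 (SE 0.05) against 2.18. BBC3 (PUMA) rose by 1.22 against 2.43 and BCL2L11 (BIM) by 0.47 against 1.54. BOK, a BAX-like effector, was the member that was kept, at 0.45 against 0.30. Of 16 p53 targets, 5 were higher and 0 lower, with 0 kept. CDKN1A (p21) rose by 0.78 against 1.88. GADD45A, a stress gene of DNA damage and JNK signalling, went from 13.2 to 14.6 CPM up to 15.9 to 18.5 CPM in JUN gRNA and from 17.5 to 20.4 CPM up to 84.1 to 95.5 CPM in Control gRNA. Its rise of 0.29 (SE 0.07) against 2.25 gave a difference of -1.97 (adjusted p = 3.46e-21, edgeR).

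**Figure D4:**
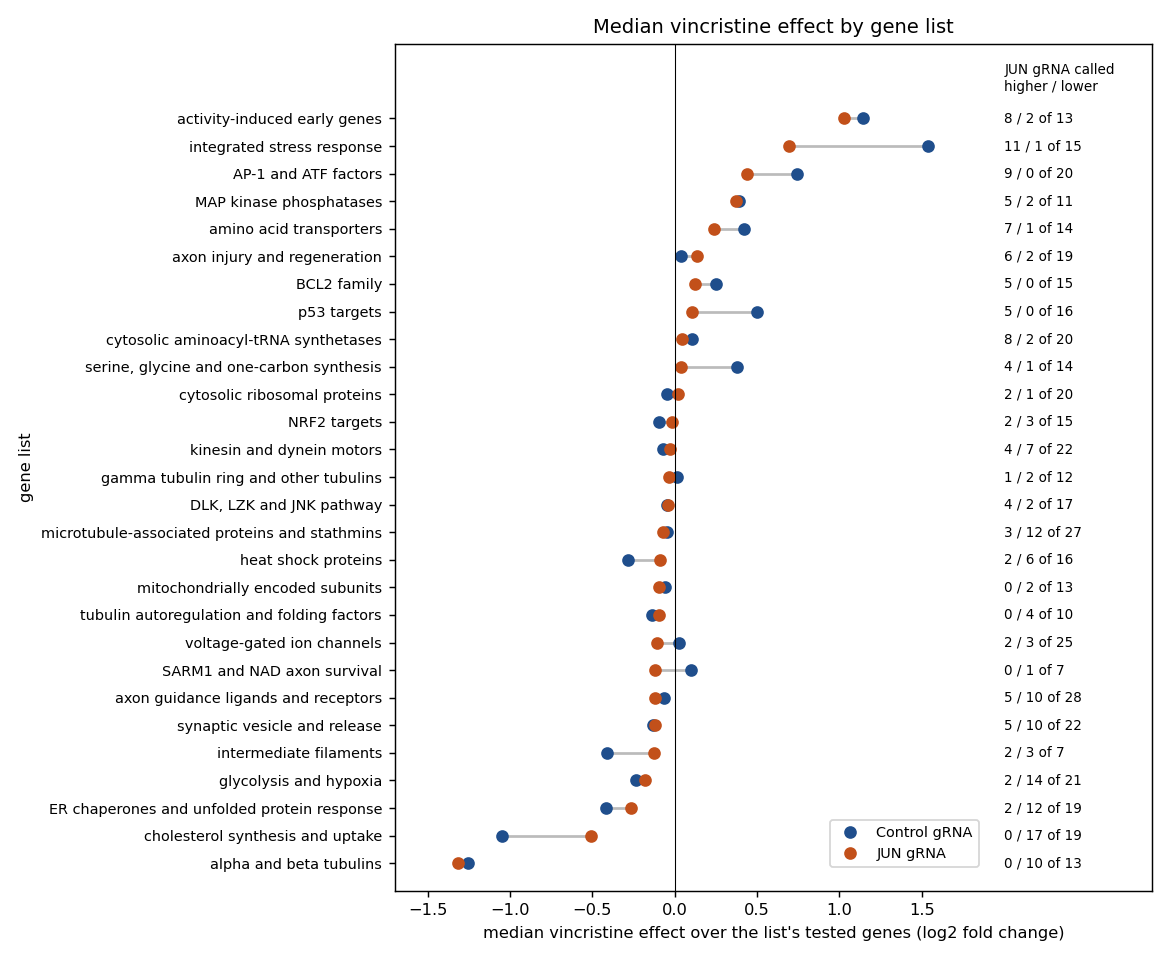
Median vincristine effect (log2 fold change) over the tested genes of 28 lists in JUN gRNA (orange) and Control gRNA (blue), with the number of genes called higher and lower in JUN gRNA at the right. The tubulin medians lie at -1.31 and -1.25, whereas those for the integrated stress response (0.69 and 1.53) and cholesterol synthesis (-0.51 and -1.05) lie apart; medians over all genes tested are 0.009 and 0.031.

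Genes of neuronal structure changed in both directions. The counts below stand beside 7.58% of all genes higher and 8.31% lower in JUN gRNA, and 17.1% and 18.1% in Control gRNA. Of 27 microtubule-associated proteins and stathmins, 3 were higher and 12 lower in JUN gRNA (4 and 10 in Control gRNA) and 0 were kept; without replicate 5, 9 were lower. STMN4, a tubulin-binding stathmin, rose by 0.72 against 1.23. Among 22 motor genes, 4 were higher and 7 lower, and KIF26B, a kinesin family member, fell by 0.56 against 1.14. Of 7 intermediate filament genes, 2 were higher and 3 lower. NES (nestin), a filament of progenitors and young neurons, went from 939 to 1060 CPM up to 1640 to 1750 CPM and rose by 0.73 (SE 0.03) against 0.88, and was kept. VIM (vimentin), another such filament, behaved differently: it went from 8.82 to 10.5 CPM up to 11.7 to 17.6 CPM in JUN gRNA, but from 17.7 to 20.5 CPM up to 121 to 136 CPM in Control gRNA. The rise was 0.57 (SE 0.07) against 2.80. NEFM, a neurofilament, fell by 0.39 against 0.86. Of 22 synaptic vesicle genes, 5 were higher and 10 lower, with SYN3 at 0.86 against 0.67 and SV2A at -0.34 against -0.31 both kept, and SYT1 at -0.34 against -0.50. Of 28 axon guidance genes, 5 were higher and 10 lower. UNC5B, a netrin receptor, rose by 1.44 against 2.80, and NRP1, a semaphorin receptor, fell by 0.89 against 1.11 and was kept. SEMA3E fell by 0.79 in JUN gRNA and gave 0.14 in Control gRNA.

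The 10 highest called genes in JUN gRNA were mixed in how far they depended on JUN. They were picked among genes with a mean of at least 1 on the log2 CPM scale over all groups of the experiment. A further condition was no overlap between treated and untreated JUN gRNA libraries, which 11.8% of all genes tested met. EGR1, KC877982.1, TNFRSF12A, GPR50 and MCOLN3 were kept. GPR50, an orphan relative of the melatonin receptors, held 91.0, 107, 91.4, 98.9 and 107 CPM untreated and 635, 604, 640, 569 and 416 CPM with vincristine in JUN gRNA. The lowest of these, in replicate 5, was above all Control gRNA vincristine libraries, at 308 to 361 CPM. GPR50 rose by 2.53 (SE 0.09) against 3.47, and the difference of -0.94 was called. KC877982.1, a non-coding RNA that starts at 151182386 on chromosome X, just past the end of GPR50 at 151181465, rose by 2.59 against 3.45. TNFRSF12A, the receptor for TWEAK, went from 1.90 to 3.00 CPM up to 11.4 to 17.0 CPM in JUN gRNA, against 34.8 to 39.4 CPM with vincristine in Control gRNA. It rose by 2.54 (SE 0.12) against 4.09. MCOLN3, a lysosomal channel, rose by 2.37 against 2.10, at 2.09 to 4.97 CPM with vincristine.

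ABCB1, the efflux pump P-glycoprotein, which exports vincristine, was undecided by the test against 50%, and its rise was far smaller in JUN gRNA. It held 0.110 to 0.492 CPM untreated and 1.46, 2.54, 1.85, 2.70 and 1.03 CPM with vincristine, whereas Control gRNA went from 0.478 to 0.909 CPM up to 45.8 to 49.8 CPM. The rise was 2.61 (SE 0.30) against 6.05, a difference of -3.44 (SE 0.44, adjusted p = 1.19e-06, edgeR). C11orf96, of unclear function, rose by 2.28 against 3.65, and NPFFR2, a neuropeptide receptor, by 2.11 against 2.66. Both were undecided, and both were lower in JUN gRNA already without the drug. Mean NPFFR2 went from 0.545 to 2.50 CPM in JUN gRNA and from 5.54 to 35.1 CPM in Control gRNA. Mean C11orf96 went from 1.46 to 7.10 CPM and from 3.22 to 40.1 CPM, in the same order. Of 37 genes named by this or a like level rule, 9 averaged under 2 CPM in JUN gRNA and Control gRNA and reached the level only through ATF2 gRNA: AC097468.1, EGR2, MCOLN3, SOWAHA, ENPP5, PTGS1, ICAM5, PLEKHA4 and NRGN. AC097468.1, an antisense transcript at 0.0627 to 0.218 CPM untreated, rose by 3.28, against 2.99 in Control gRNA, where it was close to 0 CPM. Of the 10 lowest, 7 were tubulins, and the other 3 were SAMD3 (-1.13 against -0.93), GABRA5, a GABA receptor subunit (-1.12 against -0.49), and KCNJ12, an inward rectifier potassium channel (-1.12 against -0.94).

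Among kept genes whose difference between the guides was not called, the largest rises after EGR1 and MCOLN3 were those of SOWAHA (1.94 against 0.99), ENPP5 (1.68 against 1.58), the keratin KRT8 (1.66 against 1.89), the cyclooxygenase PTGS1 (1.64 against 1.68), the neuronal adhesion protein ICAM5 (1.52 against 1.24) and FOS. The largest falls were those of 6 tubulins, GABRA5 and FAM163A (-1.07 against -0.80). TXNIP and its relative ARRDC4, arrestin-like regulators of glucose uptake, were picked after their values were seen. TXNIP went from 38.4 to 54.8 CPM up to 88.4 to 132 CPM in JUN gRNA and from 56.1 to 65.4 CPM up to 129 to 150 CPM in Control gRNA. TXNIP rose by 1.25 against 1.23 and ARRDC4 by 0.97 against 1.00, and both were kept.

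Some genes responded more, or the other way, under JUN knockdown. For 424 genes called in JUN gRNA the difference was called and the effect was larger than in Control gRNA or opposite in sign; 144 were called in opposite directions. KITLG, the ligand of the receptor KIT, held 17.3, 16.7, 17.3, 20.0 and 15.9 CPM untreated and 9.49, 12.2, 9.00, 10.3 and 11.7 CPM with vincristine in JUN gRNA. In Control gRNA it went from 12.9 to 17.7 CPM up to 35.0 to 43.8 CPM, so the untreated ranges overlapped and the vincristine ranges were far apart. It fell by 0.73 (SE 0.09) in JUN gRNA and rose by 1.34 in Control gRNA, a difference of -2.07 (adjusted p = 8.72e-17, edgeR). LHX1, a homeobox factor of neuronal identity, showed the reverse. It held 47.1 to 49.8 CPM untreated and 55.9 to 64.7 CPM with vincristine in JUN gRNA, and went from 43.1 to 47.0 CPM down to 18.3 to 21.0 CPM in Control gRNA. The effects were 0.30 (SE 0.05) and -1.21, a difference of 1.51 (adjusted p = 1.35e-21, edgeR). IER5 went from 14.2 to 17.7 CPM up to 26.2 to 29.3 CPM in JUN gRNA and from 11.9 to 13.6 CPM down to 8.17 to 9.96 CPM in Control gRNA (0.85 against -0.50). The other genes with the most positive differences were PLEKHA4 (1.07 against -0.64), the synaptic protein NRGN (0.78 against -0.60) and the transporter SLCO4C1 (1.55 against 0.22). Those with the most negative differences were GALNT14 (-0.69 against 0.79, its call in JUN gRNA lost in 10 of 17 alternatives), MSANTD4 (-0.22 against 1.11), the volume-regulated channel subunit LRRC8C (-0.62 against 0.71) and the NMDA receptor subunit GRIN2A (-0.81 against 0.39). WT neurons of the other experiment did not always move as Control gRNA did. LHX1 (-0.98) and MSANTD4 (1.04) were called in the direction of Control gRNA. GRIN2A (-0.28) and SLCO4C1 (-1.23) were called lower. KITLG (-0.34), IER5 (0.14), LRRC8C (-0.01), GALNT14 (-0.11), PLEKHA4 (-0.55) and NRGN (0.49) were not called. The experiments were fitted apart, and their difference was not tested.

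The kept genes were then looked up in other lines. Libraries of the kinase knockout experiment had no part in choosing them. The ATF2 gRNA libraries shared the filter, scaling and spread estimate of the fit that chose them. Of the 130 kept higher genes, 128 were tested in the other experiment, and 92 of these were higher in WT, where 30.2% of all genes were called and 15.7% were higher. In DLK KO it was 49 (6.53% of all genes called, 4.24% higher). In LZK KO it was 35 (3.88% called, 2.27% higher), and in the double KO 0 (0.00548% higher); with limma voom it was 1. Their median effect in the double KO was -0.007. Of the 97 kept lower genes, 62 were lower in WT (14.5% of all genes). Fewer were lower in the knockouts: 19 without DLK (2.28%), 14 without LZK (1.61%) and 8 without both kinases (0.0603%). All 8 are tubulins: TUBA1A, TUBA1B, TUBB, TUBB2A, TUBB2B, TUBB4A, TUBB4B and TUBG1. Without replicate 5 of the JUN gRNA vincristine group, 108 kept higher and 65 kept lower genes were called the same way in WT. In ATF2 gRNA neurons 6.1% of all genes were called; 55 of the kept higher genes were higher (1.88% of all) and 53 of the kept lower genes were lower (4.22%), with medians of 0.19 and -0.19. EGR1 gave 0.06 in the double KO (adjusted p = 0.969, edgeR). It gave 4.01 in WT, 2.20 without LZK and 0.79 without DLK. In ATF2 gRNA it rose by 0.41 from 536 CPM, a level already above that of the vincristine JUN gRNA libraries. FOS gave 0.22 in the double KO (adjusted p = 0.829, edgeR), 2.91 in WT and 0.84 in ATF2 gRNA, and without DLK or LZK alone 0.30 and 0.11, neither called.

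**Figure D5:**
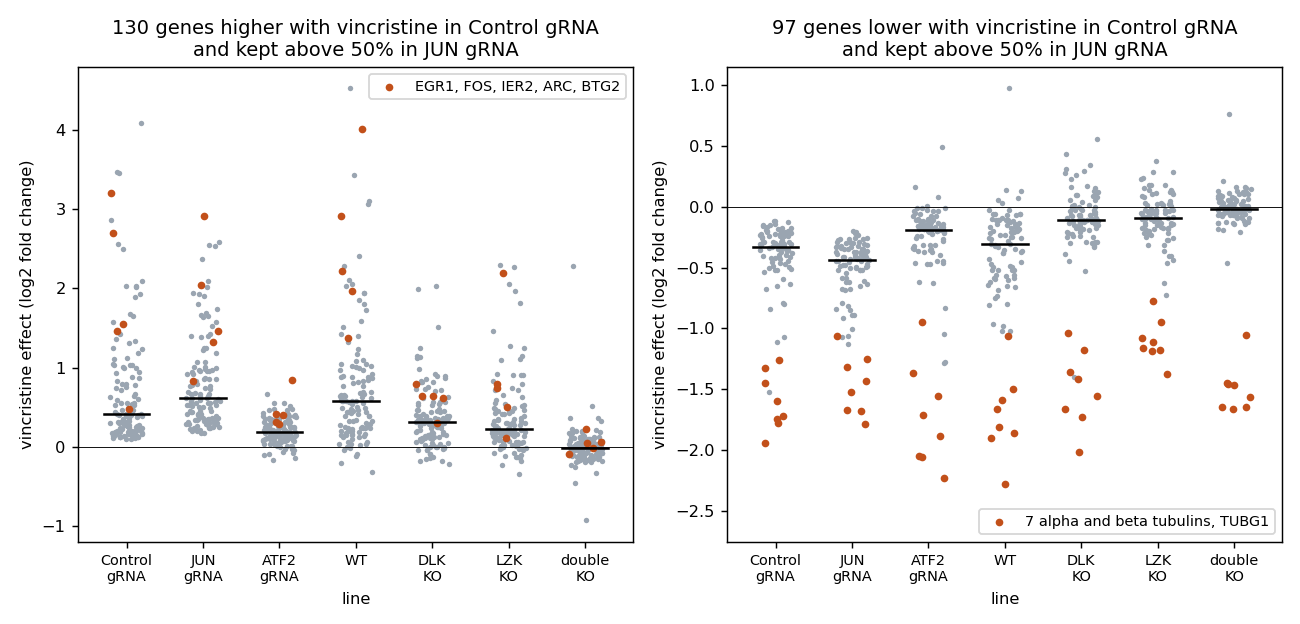
Vincristine effect (log2 fold change) in 7 lines of the 130 kept higher genes (left) and the 97 kept lower genes (right). Bars mark the median. Control gRNA and JUN gRNA are the lines compared to choose the genes, and ATF2 gRNA shared their fit. Early genes (orange, left) lie near 0 in the double KO, where the median is -0.007, while 7 α and β tubulins and TUBG1 (orange, right) lie at -1.06 to -1.66.

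JUN knockdown also shifted many genes without the drug, and 11.2% of all genes differed between untreated JUN gRNA and untreated Control gRNA (5.78% higher, 5.46% lower). Of the 130 kept higher genes, 55 did (30 higher, 25 lower), and of the 97 kept lower genes 36 did (20 higher, 16 lower). This comparison shares its untreated libraries with the test that chose the kept genes, so nothing is read from these counts. Kept genes were expressed above the typical gene, with median levels of 6.00 and 6.14 on the log2 CPM scale for kept higher and kept lower genes, against 2.99 for all genes tested. The part of expression level in these counts was not tested.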

How the data were processed

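RNA was measured by stranded poly(A) RNA-seq. The deposited values are counts of reads per gene, made by the authors with cutadapt 3.4, STAR and featureCounts of Subread 2.0.1 on GRCh38, per the submitters' processing notes. The strand setting of the counting and the treatment of marked duplicates are not given in the sources used here.

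All 29 libraries of the guide experiment were fitted with edgeR 4.0.16 (R 4.3.3; TMM factors, low-count filter, robust quasi-likelihood test, 1 mean for each of 6 groups), with Benjamini-Hochberg adjustment over all genes tested. The kinase knockout experiment was fitted separately, so levels are not compared across the experiments. A gene was called at an adjusted p under 0.05. The contrast of the JUN gRNA effect minus 50% of the Control gRNA effect defined kept and reduced genes. Effects are log2 fold changes, and standard errors were taken from the test statistic. Intervals of 95% cover the spread between libraries. No pair of libraries in a group agreed within counting noise. The alternatives were DESeq2 1.42.0, limma 3.58.1 voom with quality weights, RLE factors, other filters, the replicate number as a block, fewer groups, leaving out each library and other shares than 50%.

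The members and gene lists were chosen with earlier results of these data known. Named genes are the 10 highest and 10 lowest effects in JUN gRNA, the 8 highest and 8 lowest kept genes without a called difference, 5 and 5 larger or opposite effects, all tested α and β tubulins, JUN and its relatives, and up to 4 examples of each list. IER2, BTG2, NR4A1, NR4A2, NR4A3, SLC7A11, HSP90B1, ENO1, NAB2, TXNIP and ARRDC4 were named after their values were seen. On simulated data with 200 genes changed 2-fold equally in both lines, among 20266 genes fitted, 188 were called in JUN gRNA and 147 were kept. Of 200 changed in Control gRNA only, 136 were reduced and 0 kept.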

Additional observations from a re-analysis of the deposited data

Results flagged for a closer look

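In 8 of 100 groups of 5 libraries examined, 1 library lay far from the other 4 by Dixon's test at the 95% level, which chance gives in about 1 in 20 groups. For 5 of the 8 it was JUN gRNA vincristine replicate 5, always the lowest of its group: EGR1 at 224 CPM, GPR50 at 416 CPM, FOS at 4.97 CPM, ARC at 5.17 CPM and NAB2 at 89.3 CPM. The other values were IER5 at 26.2 CPM in JUN gRNA vincristine replicate 1, ATF3 at 18.0 CPM in JUN gRNA untreated replicate 5 and IER2 at 38.2 CPM in Control gRNA untreated replicate 2. Without JUN gRNA vincristine replicate 5, the effects in JUN gRNA were 3.00 for EGR1, 2.63 for GPR50, 1.64 for FOS, 2.19 for ARC and 1.86 for NAB2.

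For 56 named genes the vincristine effect differed between the guides by edgeR's test of the difference. Values in parentheses are differences in log2 fold change, JUN gRNA minus Control gRNA. Genes that rose in both lines, and less in JUN gRNA, were ABCB1 (-3.441), KC877982.1 (-0.86), TNFRSF12A (-1.546), GPR50 (-0.936), C11orf96 (-1.369), FOSL2 (-1.998), ATF3 (-2.068), ATF5 (-0.608), ARC (-0.658) and DDIT3 (-1.298). So were STMN4 (-0.502), MAP3K13 (-0.305), DUSP16 (-0.619), DUSP8 (-0.359), SHMT2 (-0.205), SLC7A3 (-0.674), SLC1A5 (-1.071), WARS1 (-0.175), SARS1 (-0.223), HRK (-0.942), BBC3 (-1.209), BCL2L11 (-1.072), CDKN1A (-1.101), GADD45A (-1.965), NDRG1 (-1.479), VEGFA (-0.966), NES (-0.149), VIM (-2.223) and UNC5B (-1.352). Genes that fell in both lines, and less in JUN gRNA, were TUBB4B (0.279), TTC5 (0.23), KIF26B (0.583), NR4A2 (0.721), NR4A3 (0.757), CALR (0.278), STARD4 (0.634), INSIG1 (0.93), HMGCS1 (0.465) and NEFM (0.468). Genes that rose further in JUN gRNA were BTG2 (0.36) and NAB2 (0.973). Genes called in JUN gRNA and not in Control gRNA were JUNB (0.6), TUBA1C (-0.984), PLEKHA4 (1.71), SLCO4C1 (1.33) and SEMA3E (-0.934). Genes called in Control gRNA and not in JUN gRNA were TUBB6 (-0.971) and SLC7A11 (-1.437). Genes that moved in opposite directions were LHX1 (1.515), NRGN (1.385), IER5 (1.347), KITLG (-2.067), GALNT14 (-1.482), MSANTD4 (-1.331), LRRC8C (-1.327) and GRIN2A (-1.207).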

How the results depend on the processing

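The number of genes called in JUN gRNA, in Control gRNA and for their difference stayed within 1.5 times of the reported count under every alternative run; in JUN gRNA it ranged from 2881 when 1 library was left out to 4717 with limma voom. The number of kept genes depended more on the tool and on the share required. Limma voom with quality weights gave 485 kept genes (236 higher, 249 lower), of which 218 were among the 227. A required share of 75% gave 73 (43 higher, 30 lower) and one of 25% gave 911 (429 higher, 482 lower). Leaving out 1 library at a time gave 174 to 254. DESeq2 gave 286, with all 227 among them.

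Values close to 0 changed sign. The TUBB2B difference was -0.034 without a filter, -0.011 with a mean of at least 1 CPM, -0.006 with only the groups compared and -0.031 to 0.058 with 1 library left out. The FOS difference was -0.033, -0.011 and -0.006 under the same 3 alternatives and -0.117 to 0.174 with 1 library left out. The TUBB6 effect in JUN gRNA was 0.006 with limma voom and -0.12 to 0.066 with 1 library left out, and the TUBB8 effect -0.361 to 0.172. The EGR2 difference was -1.944 without Control gRNA untreated replicate 3, which held 0.178 CPM against 0 to 0.0181 CPM in the other 4, and up to 1.226 without another library. The call of TTC5 in JUN gRNA was lost in 11 of 17 alternatives and that of TBCB in 10. The cause was not tested.

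Deviations of same-numbered libraries from their group means correlated by -0.032 to 0.201 in JUN gRNA and 0.016 to 0.132 in Control gRNA. Libraries of different numbers were not compared in this way, so pairing by number was not decided. With the replicate block, 3134 genes were called in JUN gRNA and 203 were kept, 201 of them among the 227.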

Other observations

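For the gene lists not described above, counts are read against all genes tested, of which 15.9% were called in JUN gRNA (7.58% higher, 8.31% lower) and 35.3% in Control gRNA (17.1% and 18.1%). No difference between the guides was tested for a list as a whole.

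Of 16 heat shock protein genes, 2 were higher and 6 lower in JUN gRNA, against 2 and 10 in Control gRNA, with medians of -0.09 and -0.28. Of 19 genes of axon injury and regeneration, 6 were higher and 2 lower, against 8 and 6, with 2 kept, 6 reduced and medians of 0.13 and 0.04. The other counts in JUN gRNA were near or below the share of all genes or rest on few genes. Of 25 voltage-gated ion channel genes, 2 were higher and 3 lower, against 6 and 7, with medians of -0.11 and 0.03. Of 20 cytosolic ribosomal protein genes, 2 were higher and 1 lower, against 0 and 7. Of 15 NRF2 targets, 2 were higher and 3 lower, against 5 and 6. Of 12 genes of the γ tubulin ring and other tubulins, 1 was higher and 2 lower, against 3 and 4. Of 7 genes of SARM1 and NAD axon survival, 0 were higher and 1 lower, against 2 and 1, with medians of -0.12 and 0.10. Of 13 mitochondrially encoded genes, 0 were higher and 2 lower with either guide, with medians of -0.09 and -0.06.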
